A study of Mus musculus with 42 samples.

Results

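Wild-type newborn mouse lungs kept for 3 days in hyperoxia were compared with lungs of wild-type pups of the same age kept in room air. The comparison used the 6 arrays titled as wild type on day 3, of 42 in the series: 3 from O2 and 3 from air. Every gene with an unambiguous symbol on the array was tested, 18194 in all, each read from its probe set of highest mean level. A level below is a log2 value, a change is the log2 level in O2 minus that in air with the standard error of the fit (± SE), and a gene is called where limma's Benjamini-Hochberg adjusted p over all genes was under 0.05.

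The series profiled lungs of Nrf+/+ (wild type) and Nrf-/- (knockout of Nrf2, gene Nfe2l2) pups at postnatal days P1 to P4 in air and P2 to P4 in O2, with 3 mice in each of 14 groups. The O2 pups entered the chamber within a day of birth, with foster dams that were changed daily, and breathed nominally 100% O2 (at least 95%) for 23 hours a day. The air pups were held on the bench with foster dams over the same time. Both main groups were Nrf+/+ at P4; the P2 and P3 wild-type groups (days 1 and 2) and the Nrf-/- groups at P4 serve below as comparators. RNA came from the homogenized lung of each mouse, so a lower level in this bulk tissue cannot be told apart between fewer cells of a type and less RNA per cell. The labels name neither litter nor sex. The p-values and SEs rest on the spread between mice within groups, pooled for each gene over all 14 groups and 42 arrays.

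At birth the mouse lung is saccular, and alveoli form afterwards as thin septa of epithelium, capillaries and fibroblasts grow into the sacs. Breathing high O2 in this window damages dividing and lining cells through reactive oxygen species and serves as a model of bronchopulmonary dysplasia. Damaged cells can arrest their cycle through p53 and Cdkn1a (p21), induce antioxidant genes through NRF2, and slow protein synthesis through the integrated stress response, in which ATF4 induces amino acid transport and synthesis genes. Unfolded protein in the endoplasmic reticulum (ER) induces ER chaperones.

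Lung markers were high in all 6 libraries: Sftpc (surfactant protein C, alveolar type 2 cells) lay between 14.65 and 14.71, Scgb1a1 (club cells) between 14.25 and 14.71 and Ager (alveolar type 1 cells) between 14.13 and 14.47. Correlations over all genes were 0.988 to 0.997 among the air arrays, 0.992 to 0.996 among the O2 arrays and 0.971 to 0.985 between them. Genes of other organs varied between libraries. The mean log2 level of 9 liver genes, relative to the all-array median, was -0.30, -0.40 and 5.71 in the air replicates. In the O2 replicates it was 4.89, 1.49 and 3.52. The mean of 14 heart genes stood 1.88 above the all-array median in air replicate 3 and below it in all O2 replicates. By Xist and Y-linked genes, 1 of 3 air and 2 of 3 O2 libraries had the female pattern. By limma, 0 of 9 liver, 0 of 10 skeletal muscle and 0 of 6 fat genes were called, with 0, 1 and 1 at an unadjusted p under 0.05.

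Of the 18194 genes, 5010 (27.5%) were called: 2732 (15.0%) higher and 2278 (12.5%) lower in O2. Rises were larger than falls. At least 2-fold changes among called genes numbered 426 higher and 142 lower, and the median change of all genes was -0.03. The 3 O2 values lay wholly above or below the 3 air values for 8129 genes (44.7%). Leaving out air replicate 3, which had the highest liver and heart scores of the 6 libraries, left 4206 calls. The O2 libraries kept their liver signal in that fit, so it does not remove liver RNA from the comparison. Over the fits that leave out 1 of the 6 libraries, calls ranged from 3834 (without O2 replicate 1) to 4647.

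The 15 largest rises with no overlap between groups included an acute phase protein, cytokines and growth factors. The acute phase protein Saa3 measured 8.34, 8.29 and 7.88 in air and 14.32, 13.64 and 13.99 in O2, a change of 5.81 ± 0.41 or 56.2-fold (adjusted p = 8.98e-13). The cytokine Il6 was at 4.34, 4.34 and 4.35 in air and 10.83, 9.06 and 10.06 in O2 (5.64 ± 0.37, adjusted p = 3.19e-13). Its air values lay just above the 10th percentile of their arrays (4.259 to 4.305), and all O2 values were far above them. Ptgs2 (COX-2, which makes prostaglandin precursors) changed by 4.52 ± 0.40, Ereg (epiregulin, an EGF receptor ligand) by 4.29 ± 0.25, the p53-induced TNF receptor family member Eda2r by 4.37 ± 0.26 and the protease inhibitor Serpina3n by 3.92 ± 0.75. Serpina3n was also high in air replicate 3, with 6.14, 5.83 and 7.64 in air and 11.72, 9.89 and 9.77 in O2.

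The 15 largest falls held airway, cartilage and muscle genes and several receptors. Chad, a cartilage matrix protein, measured 8.59, 8.70 and 8.64 in air and 5.96, 6.51 and 5.95 in O2 (-2.50 ± 0.48, adjusted p = 0.000148), with no air value near an O2 value. Slitrk6 changed by -2.40 ± 0.23, the cholecystokinin receptor Cckar by -2.36 ± 0.21, Fibin by -2.21 ± 0.19, the calcium sensor Vsnl1 by -2.03 ± 0.17 and the prokineticin receptor Prokr2 by -1.98 ± 0.22. The muscle genes Tnni1, Myl7 and Dhrs7c also stood among these falls, with Myl7 at 11.73, 12.85 and 14.14 in air and 10.23, 11.63 and 10.55 in O2. Its highest value was in air replicate 3, the library with the highest heart score, and without that library the change was -1.48 (adjusted p = 0.117). Tnni1 (-1.47, adjusted p = 0.227) and Dhrs7c (-1.19, adjusted p = 0.281) lost their calls there too. Over all alternatives the call was lost in 9 for Dhrs7c, 3 for Tnni1 and 2 for Myl7. In each of these genes this included the fit without O2 replicate 1. The call of C1qtnf3 (-2.23 ± 0.75) was lost in 4 of the 6 fits that leave out a main-group library, with adjusted p of 0.0503 to 0.0967.

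**Figure D1:**
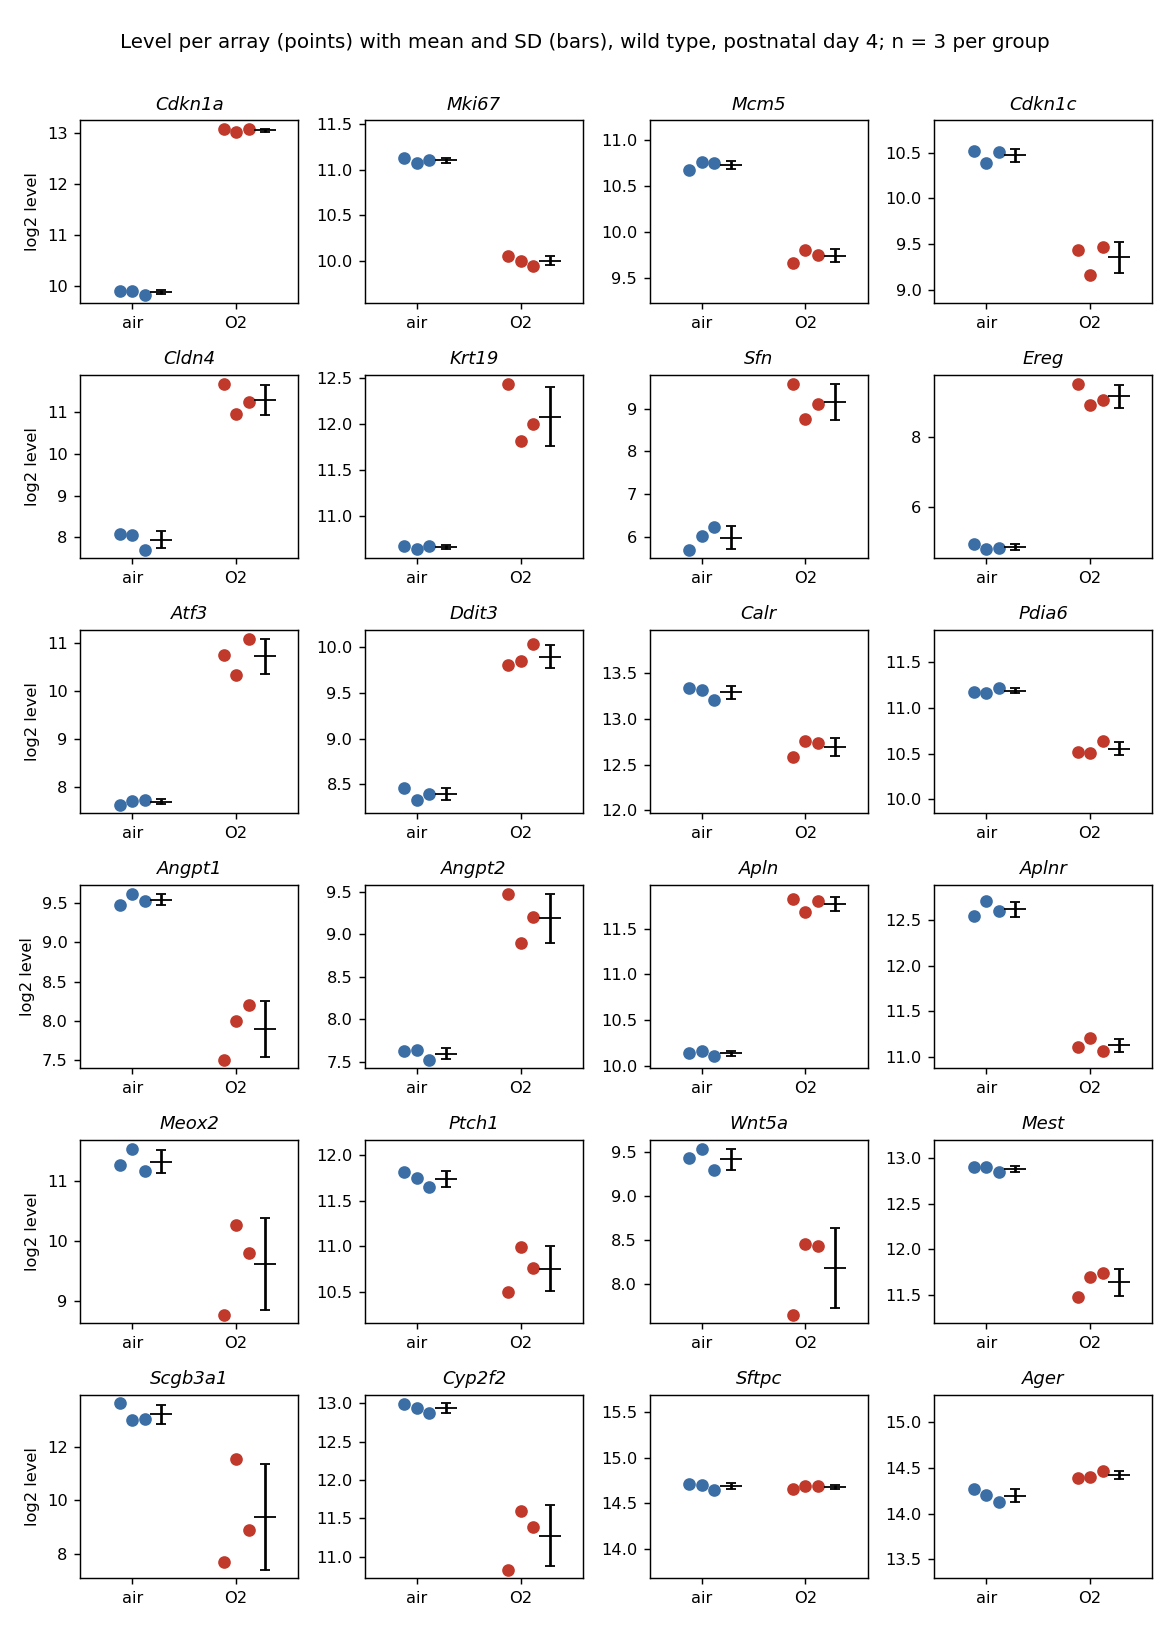
Log2 level of 24 genes on each wild-type array at P4, with air in blue and O2 in red; black bars are the mean and SD of 3 arrays, and each panel has its own level axis. Cdkn1a rose from 9.82 to 9.89 in air to 13.02 to 13.07 in O2, while Sftpc overlapped between groups at 14.65 to 14.71.

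Cell division genes were lower in O2. Of 23 measured mitosis genes 16 fell and 0 rose, with a median change of -0.95, and of 24 DNA replication genes 15 fell and 0 rose, with a median of -0.64. Over the alternatives the counts ranged from 10 to 23 and from 9 to 21, while both medians stayed below 0 and 0 members rose. Among all genes 12.5% fell, and the median change was -0.03. The proliferation antigen Mki67 measured 11.13, 11.07 and 11.10 in air and 10.05, 10.004 and 9.95 in O2 (-1.10 ± 0.28, adjusted p = 0.00354). Every O2 library was at least 1 log2 unit below every air library. The spindle genes Aspm (-1.35 ± 0.30) and Kif20a (-1.31 ± 0.35), the centromere protein Cenpf (-1.24 ± 0.34), the replicative helicase subunits Mcm4 (-0.79 ± 0.17), Mcm5 (-0.99 ± 0.24) and Mcm6 (-0.78 ± 0.17) and the S-phase transcription factor E2f1 (-0.59 ± 0.11) all fell.

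Regulators of the cell cycle split. Of 15 Cdk inhibitors, D cyclins and growth arrest genes, 8 rose and 3 fell. Cdkn1a, the p53-induced inhibitor, was at 9.89, 9.89 and 9.82 in air and 13.07, 13.02 and 13.07 in O2, a change of 3.19 ± 0.16 or 9.1-fold (adjusted p = 1.78e-15). Cyclin G1 (Ccng1, 2.29 ± 0.18) and the growth arrest genes Gadd45g (2.56 ± 0.23), Gadd45b (1.39 ± 0.13) and Btg2 (1.37 ± 0.14) rose as well. The 3 members that fell were the inhibitors Cdkn1c (p57), Cdkn2c (p18) and Cdkn1b (p27), with changes of -1.12 ± 0.17, -0.98 ± 0.23 and -0.54 ± 0.16. Cdkn1c, an imprinted gene of developing tissue, measured 10.52, 10.39 and 10.50 in air and 9.43, 9.16 and 9.46 in O2, so the inhibitors did not move as a group.

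Cell division genes were also set against the lungs at P1. In air, Kif20a averaged 6.37 at P1 and 9.13 at P4, against 7.81 in O2 at P4; for Mcm5 the means were 8.72, 10.73 and 9.74. All 23 mitosis genes rose from P1 to P4 in air, where 11.2% of all genes did. Against P1 air, where 5897 genes (32.4%) were called, the O2 lungs at P4 were still 1.15 ± 0.28 higher in Mki67 (adjusted p = 0.00187). These comparisons share arrays (the P4 air arrays or the P4 O2 arrays) with the main one, so their values are only set side by side.

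Both stress arms that respond to translation and folding problems were measured, and they moved apart. Of 24 genes of the ATF4 integrated stress response 16 rose and 2 fell (median 1.00), and of 15 tRNA synthetases, which charge tRNAs with amino acids and include ATF4 targets, 9 rose and 0 fell (median 0.30). Of 18 ER chaperones and folding factors, 10 fell and 1 rose (median -0.33). From P1 to P4 in air, 9 of these 18 rose and 2 fell, where 11.2% of all genes rose and 11.3% fell. The transcription factor Atf3 measured 7.63, 7.71 and 7.72 in air and 10.75, 10.33 and 11.07 in O2 (3.03 ± 0.20, adjusted p = 2.89e-13), and Ddit3 (CHOP) measured 8.46, 8.33 and 8.40 in air and 9.80, 9.85 and 10.04 in O2 (1.50 ± 0.09, adjusted p = 3.50e-14). Atf4 itself changed by 1.02 ± 0.07, the amino acid transporter subunits Slc3a2 and Slc7a11 by 1.25 ± 0.08 and 1.18 ± 0.08, and seryl-tRNA synthetase (Sars) by 0.62 ± 0.07.

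Among the ER proteins, calreticulin (Calr) was at 13.34, 13.32 and 13.21 in air and 12.58, 12.76 and 12.73 in O2 (-0.60 ± 0.06, adjusted p = 2.15e-09), with every O2 value below every air value. The disulfide isomerase Pdia6 was at 11.18, 11.17 and 11.22 in air and 10.52, 10.50 and 10.64 in O2 (-0.63 ± 0.07, adjusted p = 1.13e-08). Hsp90b1 (GRP94) changed by -0.60 ± 0.08, Pdia3 by -0.49 ± 0.07 and Hspa5 (BiP), the central ER chaperone, by -0.38 ± 0.07. The single member that rose was Herpud1 (0.72 ± 0.15), which belongs to the degradation of ER proteins. These falls were small, under 1 log2 unit, but larger than the spread between replicates.

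**Figure D2:**
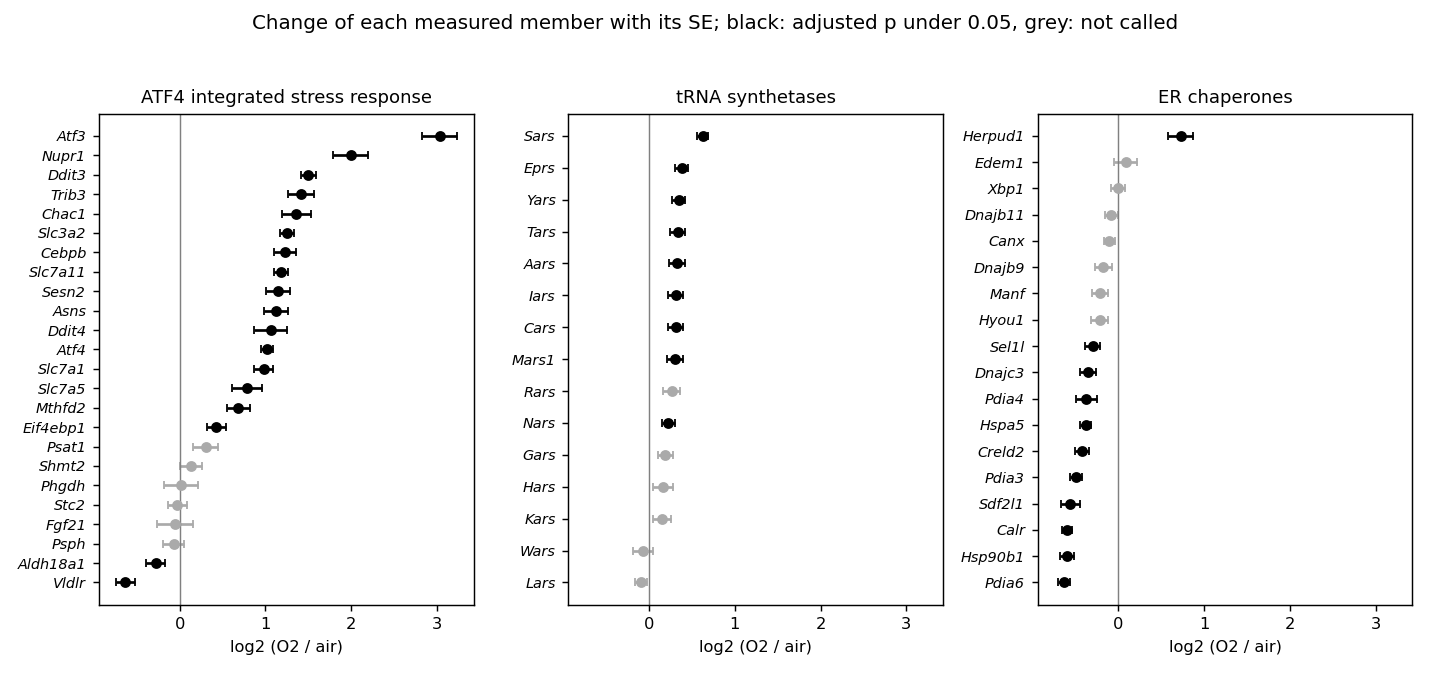
Change (O2 minus air, log2) of each measured member of 3 gene lists, with bars of 1 SE of the fit from 3 arrays per group; black points were called and grey points were not. Atf3 lies farthest to the right at 3.03, the called tRNA synthetases lie above 0, and Herpud1 is the only called ER chaperone above 0.

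Promoters of both groups were read from RefSeq (GRCm38.p6), over the 250 bases before the annotated start and on both strands; 14453 of the genes tested had an entry. The letters TGATGNAA, known as a C/EBP-ATF composite element bound by ATF4, occurred in 7 of 22 promoters of the ATF4 list and 3 of 9 of the tRNA synthetase list, against 2.84% of all promoters. They also occurred in 1 of 16 ER chaperone promoters, that of Herpud1, which rose. The letters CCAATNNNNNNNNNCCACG, the ER stress element, occurred in 7 of 16 ER chaperone promoters, in 0 of 22 of the ATF4 list and in 0.131% of all promoters; this element contains CCAAT, which alone occurred in 39.4%. Genes of both lists were in part defined through such elements, so the shares describe the lists and not these samples. In the ATF4 list the matches were in Asns, Atf3, Chac1, Nupr1 and Slc7a11, which rose, in Fgf21, which was not called (-0.06 ± 0.21), and in Vldlr, which fell (-0.63 ± 0.11). The 120-base windows below show how the letters lie in genes that rose and in genes that fell; these genes were chosen for a match after their values were seen, each is written 5′ to 3′ on the gene's strand, and capitals mark the fixed letters of a match on either strand.
Atf3 (chr1:191183380-191183499, minus strand): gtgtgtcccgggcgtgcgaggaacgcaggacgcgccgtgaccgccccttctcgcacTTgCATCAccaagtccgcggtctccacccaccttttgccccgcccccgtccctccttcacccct
Asns (chr6:7693210-7693329, minus strand): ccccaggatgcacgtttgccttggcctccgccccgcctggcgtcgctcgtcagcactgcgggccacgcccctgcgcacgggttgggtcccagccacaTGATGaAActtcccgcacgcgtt
Nupr1 (chr7:126625517-126625636, minus strand): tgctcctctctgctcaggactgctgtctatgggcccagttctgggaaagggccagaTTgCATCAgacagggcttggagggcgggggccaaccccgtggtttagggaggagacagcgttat
Slc7a11 (chr3:50443616-50443735, minus strand): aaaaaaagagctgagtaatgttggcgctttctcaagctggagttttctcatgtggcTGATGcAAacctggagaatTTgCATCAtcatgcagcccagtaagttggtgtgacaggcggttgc
Hspa5 (chr2:34771970-34772089, plus strand): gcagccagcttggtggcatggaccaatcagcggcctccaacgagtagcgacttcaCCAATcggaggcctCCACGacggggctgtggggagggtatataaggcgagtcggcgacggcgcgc
Calr (chr8:84847024-84847143, minus strand): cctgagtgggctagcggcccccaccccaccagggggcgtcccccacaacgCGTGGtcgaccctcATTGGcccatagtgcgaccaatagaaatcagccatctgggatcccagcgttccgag
Hsp90b1 (chr10:86705575-86705694, minus strand): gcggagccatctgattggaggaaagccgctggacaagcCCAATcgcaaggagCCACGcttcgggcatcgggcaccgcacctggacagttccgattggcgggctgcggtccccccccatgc
Pdia6 (chr12:17266441-17266560, plus strand): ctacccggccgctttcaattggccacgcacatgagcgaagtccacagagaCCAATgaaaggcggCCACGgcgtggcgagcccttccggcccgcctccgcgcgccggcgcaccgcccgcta
In these windows the first 4 genes carry the TGATGNAA letters, with 2 matches in Slc7a11 (cystine transporter), and rose by 3.03 ± 0.20 (Atf3), 1.12 ± 0.14 (asparagine synthetase, Asns), 2.00 ± 0.20 (the stress factor Nupr1) and 1.18 ± 0.08 (Slc7a11). The other 4 carry the ER stress element, and all fell. Among ER chaperones with this element that are not shown, Canx changed by only -0.11, Creld2 by -0.43 and Dnajc3 by -0.35. A match shows only that the letters are present.

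Other stress lists mostly rose. Among p53 targets 15 of 18 rose and 0 fell (median 1.47), and among NRF2 targets 20 of 24 rose and 0 fell (median 0.91). Of 13 heat shock genes, 6 rose, led by the small heat shock protein Hspb8 (1.41 ± 0.15) and the inducible Hspa1b (1.28 ± 0.22), and 1 (Dnaja1, -0.21 ± 0.06, a call lost in 2 alternatives) fell; 3 to 7 rose over the alternatives. Of 13 metallothionein and iron genes, 9 rose and 0 fell (median 0.74): Mt2, a metal-binding protein, measured 10.54, 10.56 and 10.84 in air and 13.53, 12.39 and 12.34 in O2 (2.11 ± 0.29) and the zinc and iron importer Slc39a14 changed by 1.92 ± 0.16. Of 15 lysosome and autophagy genes 9 rose and 1 fell, among them the autophagy receptor Sqstm1 (0.79 ± 0.07) and Gpnmb (2.06 ± 0.28). Proteasome subunits stayed near the background, with 3 of 16 higher and 1 lower (median 0.08).

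Genes associated with injured and transitional epithelium rose, though RNA of the homogenized lung does not show which cells made them. Of 18 such genes 15 rose and 0 fell, with a median of 1.23. From P1 to P4 in air, 10 of the 18 fell and 0 rose, where 11.3% of all genes fell. The tight junction protein Cldn4 measured 8.09, 8.05 and 7.70 in air and 11.69, 10.96 and 11.23 in O2 (3.34 ± 0.20, adjusted p = 5.72e-14). Keratin 19 (Krt19) was at 10.66, 10.63 and 10.67 in air and 12.44, 11.81 and 12.00 in O2 (1.43 ± 0.19), and the p53-induced 14-3-3 sigma (Sfn) at 5.70, 6.03 and 6.22 in air and 9.59, 8.76 and 9.11 in O2 (3.17 ± 0.25). In each of the 3 genes the O2 values lay above all air values. Hbegf, an EGF receptor ligand, changed by 2.29 ± 0.14, tissue factor (F3) by 3.10 ± 0.19 and the urokinase receptor Plaur by 2.14 ± 0.14.

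Alveolar type 1 genes rose and type 2 genes did not move together. From P1 to P4 in air, 12 of 16 type 1 and 11 of 16 type 2 genes fell, where 11.3% of all genes did. Of 16 type 1 genes 10 rose, among them the aquaporin Aqp5 (10.66, 10.67 and 10.49 in air and 11.23, 11.23 and 11.50 in O2, 0.71 ± 0.14, adjusted p = 0.000202), Krt7 (0.98 ± 0.14) and Lmo7 (0.88 ± 0.13), and 1 fell, caveolin 1 (Cav1, -0.34 ± 0.07). The type 1 marker Ager changed by 0.23 ± 0.08 (adjusted p = 0.0267), a call lost without air replicate 2 or 3 or O2 replicate 3 (adjusted p of 0.0589 to 0.118). Of 16 type 2 genes 3 rose and 4 (1 to 6 over the alternatives) fell (median -0.03, against 0.39 for type 1). Sftpc, their defining marker, measured 14.71, 14.70 and 14.65 in air and 14.66, 14.69 and 14.70 in O2, with overlapping groups and a change of -0.01 ± 0.05 (adjusted p = 0.95), near the upper end of the scale, where arrays compress differences. Surfactant protein A (Sftpa1) was lower at 13.04, 13.08 and 12.93 in air and 12.38, 12.36 and 12.61 in O2 (-0.56 ± 0.12) and surfactant protein D (Sftpd), a collectin like it, was higher at 12.59, 12.63 and 12.40 in air and 13.11, 12.97 and 13.15 in O2 (0.53 ± 0.11). Cathepsin H (Ctsh), which processes surfactant proteins, rose by 0.71 ± 0.15. Of 18 surfactant lipid genes 4 rose, including choline kinase Chka (0.99 ± 0.12), and 4 fell, including the acyltransferase Lpcat1 (-0.41 ± 0.11) and ATP citrate lyase Acly (-0.45 ± 0.08); without O2 replicate 1 the call of Lpcat1 was lost (adjusted p = 0.0501).

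Of 16 club and secretory cell genes 6 fell, 1 rose and 9 were not called, with a median of -0.97. The 1 that rose was Cyp4b1 (0.75), which is also in the aerocyte list. The secretoglobin Scgb3a1 measured 13.61, 12.98 and 13.02 in air and 7.70, 11.53 and 8.90 in O2 (-3.83 ± 1.22, adjusted p = 0.0172). The O2 values were scattered, with replicate 2 closest to air, and without O2 replicate 1 the change was -2.99 (adjusted p = 0.118). The airway cytochrome Cyp2f2 was at 12.99, 12.94 and 12.87 in air and 10.84, 11.60 and 11.39 in O2 (-1.66 ± 0.25, adjusted p = 5.91e-06), and Scgb1a1, the most abundant club cell product, at 14.71, 14.69 and 14.65 in air and 14.25, 14.38 and 14.34 in O2 (-0.36 ± 0.06). Lypd2 changed by -2.50 ± 0.52 and the claudin Cldn10 by -1.22 ± 0.17. Over the alternatives 4 to 10 of the list fell, and its median lay between -1.22 and -0.39. Of 17 ciliated cell genes 4 fell, 0 rose and 13 were not called, with 1 to 5 lower over the alternatives. The share called, 23.5%, was near the 27.5% of all genes. The ciliated cell regulator Foxj1 did not pass the test (7.41, 7.85 and 7.57 in air and 7.53, 8.07 and 8.02 in O2, adjusted p = 0.502), and the calls of Rsph4a, Cdhr3 and Tppp3 were lost without O2 replicate 1. Of 8 neuroendocrine genes 0 were called by limma, and 0 had an unadjusted p under 0.05.

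Barrier and fluid transport genes rose against air of the same age. From P1 to P4 in air, 10 of 16 junction genes and 10 of 14 ion channel and aquaporin genes fell. In both lists 0 rose, and of all genes 11.3% fell. That comparison shares the P4 air arrays with the main one, so the values are only set side by side. Of 16 junction genes 10 (5 to 10 over the alternatives) rose and 0 fell (median 0.35), among them the claudin Cldn7 (0.84 ± 0.10) and cingulin Cgn (0.79 ± 0.10). Of 14 ion channel and aquaporin genes 9 rose (median 0.51), including the epithelial sodium channel subunits Scnn1b (0.74 ± 0.13) and Scnn1g (0.64 ± 0.15), the sodium pump subunit Atp1b1 (0.70 ± 0.15) and Aqp3 (1.09 ± 0.22). The pair that fell was Aqp1 (-0.33 ± 0.11), the water channel of endothelium, and Aqp4 (-1.26 ± 0.39). The epithelial adhesion marker Epcam rose by 0.68 ± 0.12 (adjusted p = 2.97e-05).

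Vascular genes moved in both directions. The endothelial markers Pecam1 (11.27, 11.35 and 11.21 in air and 11.12, 11.05 and 11.28 in O2, -0.13 ± 0.11, adjusted p = 0.429) and Kdr (10.69, 10.83 and 10.64 in air and 10.71, 10.87 and 11.10 in O2, 0.17 ± 0.14, adjusted p = 0.391) did not pass the test, and both overlapped between groups. Of 20 general capillary genes 3 rose and 6 fell (median -0.12), of 11 aerocyte genes 3 rose and 3 fell, of 16 arterial and venous genes 4 rose and 5 fell, and of 7 lymphatic genes 2 rose and 1 fell (Prox1, -0.40 ± 0.15, a call lost in 10 alternatives). The apelin receptor Aplnr measured 12.54, 12.70 and 12.60 in air and 11.11, 11.20 and 11.06 in O2 (-1.49 ± 0.16, adjusted p = 1.74e-08), and its ligand Apln measured 10.14, 10.16 and 10.11 in air and 11.82, 11.69 and 11.81 in O2 (1.63 ± 0.13, adjusted p = 3.22e-11). Receptor and ligand moved in opposite directions with no overlap. The angiopoietins did so too: Angpt1, which activates the receptor Tek and stabilizes vessels, was at 9.48, 9.63 and 9.53 in air and 7.50, 7.99 and 8.20 in O2 (-1.65 ± 0.21, adjusted p = 2.95e-07), and Angpt2, which can antagonize it, at 7.63, 7.63 and 7.52 in air and 9.47, 8.89 and 9.20 in O2 (1.60 ± 0.19, adjusted p = 1.18e-07). Tek changed by -0.66 ± 0.14.

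Of 19 VEGF, angiopoietin and apelin genes 7 rose and 4 fell. Vegfa, the main endothelial growth factor of the lung, was at 11.10, 11.05 and 10.89 in air and 11.65, 11.54 and 11.59 in O2 (0.58 ± 0.15, adjusted p = 0.00317), placental growth factor Pgf changed by 1.13 ± 0.11 and Vegfc by -0.63 ± 0.16. The endothelial transcription factor Sox17 (-0.96 ± 0.16), the gap junction gene Gja4 (-1.27 ± 0.15) and the prostaglandin-degrading enzyme Hpgd (-1.16 ± 0.23) fell. Endoglin (Eng, 0.72 ± 0.10), the hyaluronan receptor Lyve1 (1.73 ± 0.11) and the adhesion molecules Selp (1.18 ± 0.18) and Sele (0.75 ± 0.15), which capture leukocytes, rose. Of 15 Notch pathway genes 2 rose, the ligand Dll4 (0.46 ± 0.16, a call lost in 4 alternatives) and the target Hes1 (0.64 ± 0.13), and 0 fell. The share of Notch genes called, 13.3%, was below the 27.5% of all genes. Of 18 coagulation and fibrinolysis genes 9 rose and 1 fell (median 0.55): thrombospondin 1 (Thbs1) measured 10.98, 10.94 and 10.81 in air and 13.18, 12.92 and 13.17 in O2 (2.18 ± 0.19), plasminogen activator Plat changed by 1.14 ± 0.16 and the anticoagulant thrombomodulin (Thbd) by -0.45 ± 0.12. The mean of this list, relative to all arrays, was -0.28, -0.25 and 0.31 in air and 1.25, 0.50 and 0.72 in O2. It was highest in air replicate 3 and O2 replicate 1, as was the liver score within each group. The part of liver RNA in the values of this list was not tested. Of 11 platelet genes 7 (4 to 8 over the alternatives) rose and 0 fell (median 0.43), with Pf4 at 0.61 ± 0.15 and Itgb3 at 0.72 ± 0.13.

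Fibroblast genes were lower. Of 19 fibroblast and lipofibroblast genes 10 fell and 1 rose (Plin2, a lipid droplet protein, 0.65 ± 0.13), with a median of -0.50. The mesenchymal transcription factor Meox2 measured 11.27, 11.55 and 11.17 in air and 8.76, 10.27 and 9.80 in O2 (-1.72 ± 0.22, adjusted p = 4.36e-07). Its lowest value was in O2 replicate 1, and all O2 values were below all air values. The fibroblast transcription factor Tcf21 changed by -0.86 ± 0.12, the PDGF receptor Pdgfra, which marks the progenitors of alveolar myofibroblasts, by -0.996 ± 0.18, and the transporter Slc7a10 by -1.17 ± 0.18. Of 12 pericyte genes 5 fell and 2 rose (median -0.30): the guanylate cyclase subunit Gucy1a1, a receptor of nitric oxide, was at 12.61, 12.66 and 12.55 in air and 11.16, 11.44 and 11.71 in O2 (-1.17 ± 0.12, adjusted p = 9.63e-09). Of 15 myofibroblast and smooth muscle genes 5 fell and 1 rose (Tagln, 0.49 ± 0.13), while smooth muscle actin Acta2 did not pass the test (13.60, 13.58 and 13.54 in air and 13.52, 13.62 and 13.64 in O2, adjusted p = 0.935). Of 9 mesothelial genes 3 rose and 0 fell; these were Msln (0.62 ± 0.23), whose call was lost in 7 alternatives, among them all 6 fits without a main-group library (adjusted p of 0.0553 to 0.116), Upk1b (0.92 ± 0.27), whose call was lost without O2 replicate 1 (adjusted p = 0.0658), and Krt19.

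Few genes of the structural matrix were called. Elastin (Eln), the core of the elastic fibres laid down during alveolar growth, was at 13.42, 13.45 and 13.59 in air and 13.44, 13.24 and 13.51 in O2 (-0.09 ± 0.13, adjusted p = 0.673). Of 15 elastic fibre genes 2 fell and 0 rose, near the 12.5% of all genes that fell; both were fibre-associated glycoproteins, Mfap2 (12.00, 11.94 and 12.08 in air and 10.91, 11.10 and 11.27 in O2, -0.91 ± 0.15, adjusted p = 1.92e-05) and Emilin1 (-0.68 ± 0.09). Of 25 collagen genes (median 0.04) 4 rose, including the basement membrane chains Col4a1 (0.18 ± 0.06, a call lost in 3 alternatives with adjusted p up to 0.132) and Col4a2 (0.34 ± 0.08), and 1 fell, Col1a2 (-0.33 ± 0.12), a call lost in 5 of the 6 fits without a main-group library. Called collagen genes made up 20% of their list, below the 27.5% of all genes. Of 19 metalloproteinases and inhibitors 9 (4 to 11 over the alternatives) rose and 1 fell (median 0.62), with Mmp3 at 5.28, 5.34 and 5.26 in air and 9.10, 7.79 and 7.46 in O2 (2.83 ± 0.31) and the inhibitor Timp1 at 8.36, 8.42 and 8.55 in air and 11.85, 11.34 and 11.02 in O2 (2.96 ± 0.22, adjusted p = 3.46e-12). Of 24 laminin and matrix adhesion genes 10 rose and 2 fell: hyaluronan synthase Has2 changed by 1.52 ± 0.22, tenascin C (Tnc) by 0.82 ± 0.11, Ccn1 by 1.69 ± 0.20 and nidogen 2 (Nid2) by -1.29 ± 0.15.

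Of the morphogen pathways of the growing lung, Hedgehog and Wnt had more members lower than higher, but the share of Wnt genes called was near that of all genes. Of 13 Hedgehog genes 7 fell and 0 rose (median -0.40). Ptch1, the receptor and a target of the pathway, measured 11.82, 11.75 and 11.65 in air and 10.50, 10.99 and 10.77 in O2 (-0.98 ± 0.16, adjusted p = 1.71e-05), the transducer Smo changed by -0.55 ± 0.10 and the transcription factor Gli3 by -0.59 ± 0.08. Of 25 Wnt genes 6 fell and 1 rose (median -0.14), so 28% were called, against 27.5% of all genes. The ligand Wnt5a was at 9.43, 9.54 and 9.29 in air and 7.64, 8.45 and 8.42 in O2 (-1.25 ± 0.22, adjusted p = 4.04e-05), and Wnt2 changed by -0.86 ± 0.19. Of 20 insulin-like growth factor and imprinted genes 8 (4 to 9 over the alternatives) fell and 1 rose: Mest measured 12.90, 12.90 and 12.85 in air and 11.47, 11.69 and 11.75 in O2 (-1.24 ± 0.10, adjusted p = 1.67e-11), and Grb10 (-0.78 ± 0.08) and Plagl1 (-0.64 ± 0.10), also imprinted, fell with it. Of 16 retinoid genes 3 fell, including the retinoic acid degrading Cyp26b1 (-0.80 ± 0.20), and the synthesizing enzyme Aldh1a3 rose (1.86 ± 0.19). The share of retinoid genes called, 25%, was near the 27.5% of all genes.

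Genes of receptor kinase signalling moved in both directions. Of 20 FGF genes 7 rose, among them the feedback inhibitors Spry4 (0.98 ± 0.13) and Spry2 (0.73 ± 0.11) and the carrier Fgfbp1 (1.79 ± 0.16), and 6 fell, among them the receptor Fgfr3 (-0.82 ± 0.13). Of 19 PDGF, HGF and EGF genes 9 (5 to 10 over the alternatives) rose and 2 fell: the ligands Ereg, Hbegf and neuregulin 1 (Nrg1, 1.23 ± 0.13) rose, and so did the receptor's inhibitor Errfi1 (1.53 ± 0.24). Of 28 TGF-beta and BMP genes 11 rose and 2 fell (median 0.11). The activin subunits Inhba (1.23 ± 0.15) and Inhbb (1.66 ± 0.21) rose together with their binding inhibitors Fst (6.71, 6.35 and 6.44 in air and 8.87, 8.09 and 8.20 in O2, 1.89 ± 0.25) and Fstl3 (1.28 ± 0.14). Of 23 guidance genes 7 rose, including the ephrin receptor Epha2 (1.49 ± 0.12) and endothelial Robo4 (1.00 ± 0.12), and 6 fell, including Sema6a (-0.65 ± 0.12).

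**Figure D3:**
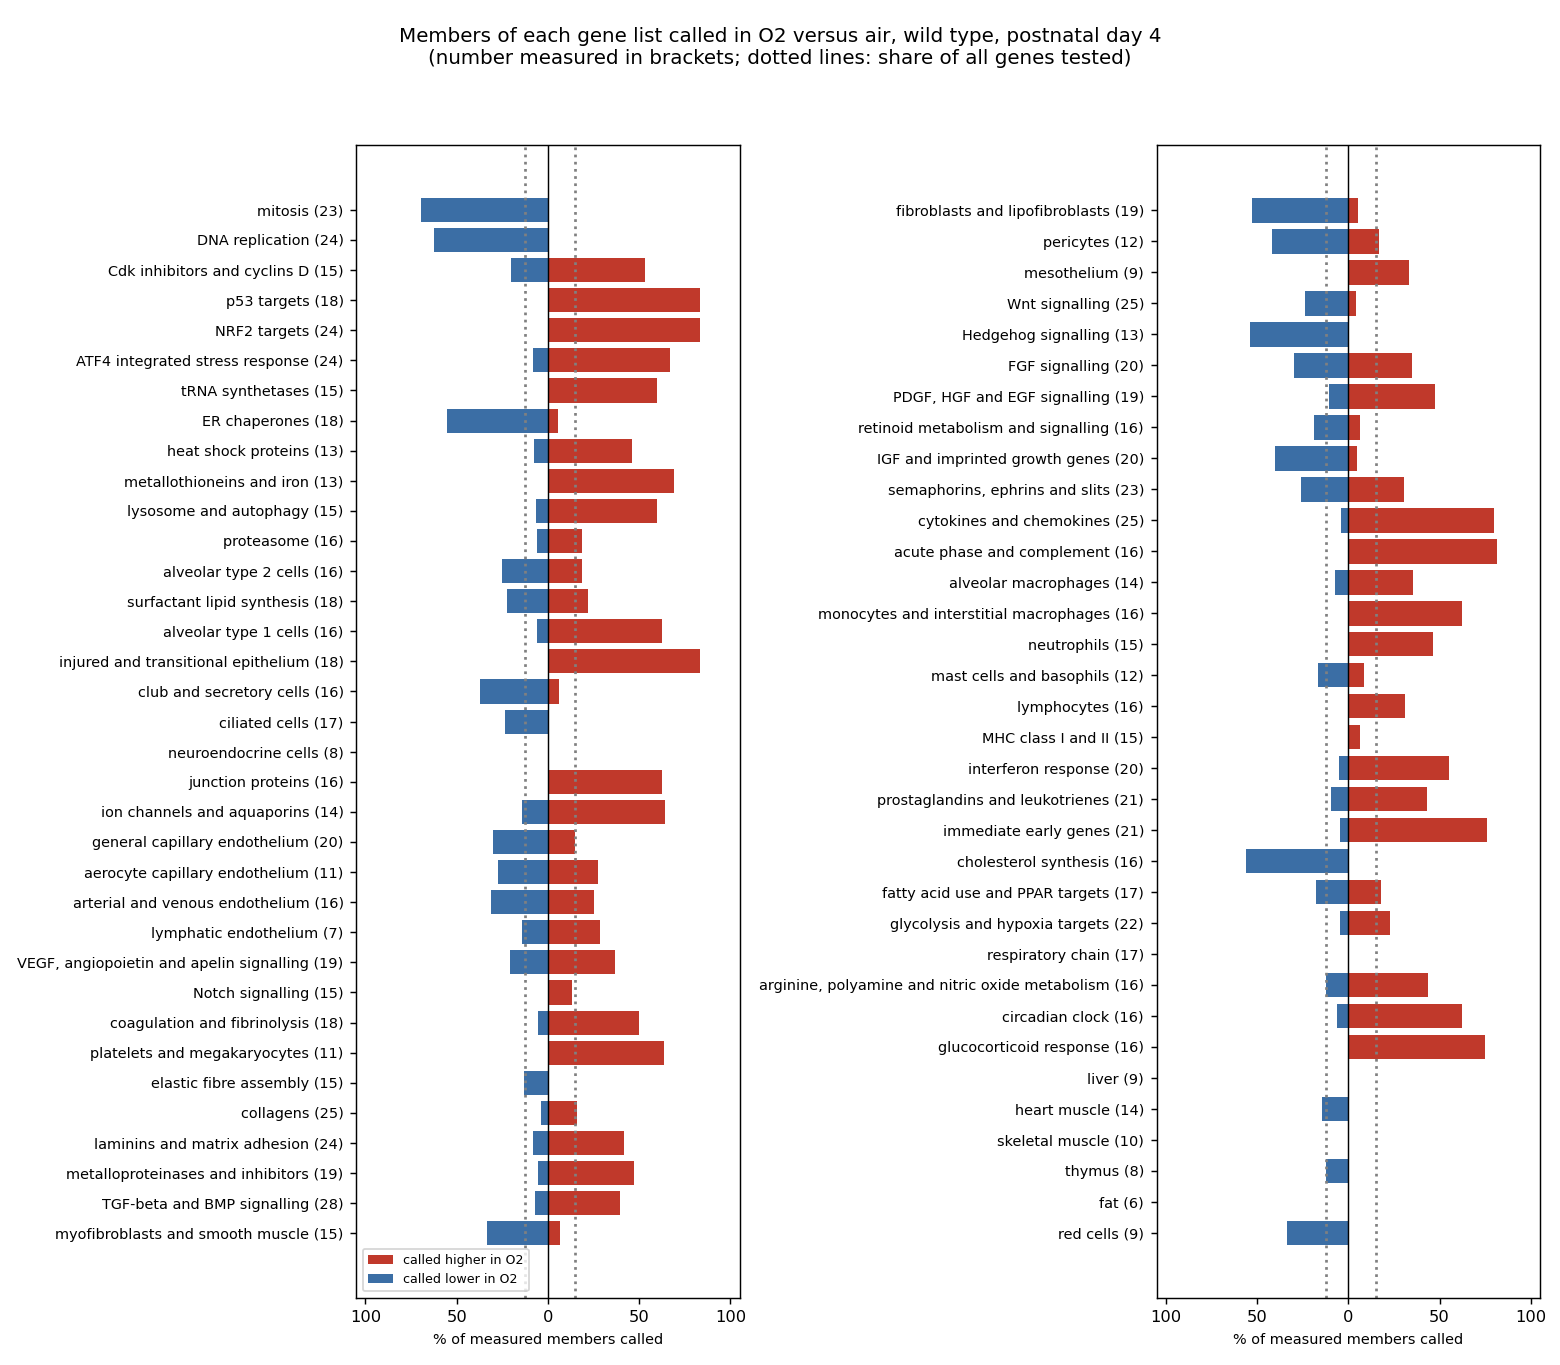
Share of the measured members of each of 69 gene lists called higher (red, to the right) or lower (blue, to the left) in O2 at P4 in wild type, in percent, with the number measured in brackets. Dotted lines mark the shares of all genes, 15.0% higher and 12.5% lower; mitosis, DNA replication, ER chaperones, fibroblasts, Hedgehog and cholesterol synthesis extend to the left.

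Genes of secreted immune factors rose broadly. Of 25 cytokines and chemokines 20 (10 to 20 over the alternatives) rose and 1 fell (median 1.22), and of 16 acute phase and complement genes 13 rose and 0 fell, including the classical complement proteases C1ra (1.08 ± 0.15) and C1s1 (1.07 ± 0.19). The liver score was above the all-array median in every O2 library but, in air, only in replicate 3. The part of liver RNA in the acute phase values was not tested. The monocyte chemokine Ccl2 measured 6.16, 5.89 and 6.35 in air and 10.39, 10.50 and 11.19 in O2 (4.56 ± 0.27, adjusted p = 3.50e-14) and the neutrophil chemokine Cxcl2 measured 4.62, 4.45 and 4.35 in air and 9.87, 7.48 and 8.95 in O2 (4.29 ± 0.35, adjusted p = 2.91e-11). Of 15 neutrophil genes 7 rose and 0 fell (median 0.62). The mean of the list, relative to all arrays, was -0.46, -0.59 and -0.34 in air and 0.99, -0.12 and 0.39 in O2, so O2 replicate 2 was closest to air; the part of neutrophils in the cytokine values was not tested. The neutrophil gene Stfa2l1 was at 9.42, 9.21 and 9.38 in air and 12.12, 10.43 and 11.16 in O2 (1.90 ± 0.35) and Csf3r at 7.69, 7.69 and 7.33 in air and 9.46, 8.48 and 9.05 in O2 (1.43 ± 0.22). Of 16 monocyte and interstitial macrophage genes 10 (6 to 11 over the alternatives) rose and 0 fell, with Cd14 at 8.68, 8.79 and 8.51 in air and 11.48, 10.22 and 10.86 in O2 (2.20 ± 0.24) and Ms4a7 changed by 1.38 ± 0.19.

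The leukocyte marker Ptprc (CD45) did not pass the test over all groups (10.32, 10.18 and 10.15 in air and 10.85, 10.52 and 10.76 in O2, 0.49 ± 0.31, adjusted p = 0.266), although its O2 values lay above its air values and a fit to the 6 arrays alone called it (adjusted p = 0.0093). Of 14 alveolar macrophage genes 5 rose and 1 fell: the scavenger receptor Marco changed by 1.22 ± 0.31 and Cd68 by 1.35 ± 0.22, while Siglecf was lower at 5.93, 6.08 and 5.44 in air and 5.02, 4.72 and 4.89 in O2 (-0.94 ± 0.21). Of 12 mast cell and basophil genes, the growth factor receptor Kit (10.04, 10.21 and 10.02 in air and 8.42, 8.27 and 8.32 in O2, -1.75 ± 0.19, adjusted p = 2.06e-08), which other lung cells also express, and the histamine-synthesizing Hdc (-1.26 ± 0.18) fell, and Mcpt8 (0.47 ± 0.18) rose with a call that was lost in 8 alternatives. In this list 25% were called, near the 27.5% of all genes. Of 16 lymphocyte genes 5 rose and 0 fell, among them the B cell receptor chains Cd79a (0.51 ± 0.18) and Cd79b (0.56 ± 0.17) and the killer cell receptor Klrd1 (1.00 ± 0.21). The calls of Cd79a and Cd79b were lost in 5 and 4 alternatives (adjusted p up to 0.132 and 0.0737), and 1 to 6 lymphocyte genes rose over the alternatives. Called lymphocyte genes made up 31.2% of their list, near the 27.5% of all genes. Of 15 MHC genes 1, the peptide transporter Tap1 (0.66 ± 0.17), rose and 0 fell. The mean of the Tap1 probe sets was not called (adjusted p = 0.111). Only 6.7% of the MHC genes were called, below the 27.5% of all genes. Of 20 interferon-response genes 11 (6 to 13 over the alternatives) rose (median 0.47), among them Bst2 (0.88 ± 0.12), Irf1 (0.51 ± 0.09) and Ifit1 (1.14 ± 0.27), and 1 fell (Rsad2, -1.28 ± 0.35). Of 21 prostaglandin and leukotriene genes 9 rose and 2 fell: beside Ptgs2, prostaglandin E synthase Ptges (1.48 ± 0.20) and the receptor Ptger4 (8.49, 8.76 and 8.65 in air and 9.96, 9.93 and 10.02 in O2, 1.34 ± 0.17) rose while the degrading enzyme Hpgd fell.

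Genes of rapid transcriptional responses were high. Of 21 immediate early genes (median 1.79) 16 rose and 1 fell (Klf2, -0.72 ± 0.16, a flow-responsive endothelial factor), with Fosb at 4.63, 4.49 and 4.60 in air and 8.24, 7.68 and 8.61 in O2 (3.60 ± 0.23) and Junb at 8.43, 8.40 and 8.20 in air and 11.75, 10.74 and 11.24 in O2 (2.90 ± 0.20). Of 16 glucocorticoid-response genes 12 rose and 0 fell, among them Cebpd at 10.10, 10.06 and 10.12 in air and 13.03, 12.57 and 12.78 in O2 (2.70 ± 0.24), and Mt1, Mt2 and Cdkn1a of this list also belong to lists above. Of 16 clock genes 10 rose and 1 fell (median 0.45): Per2 measured 7.87, 7.79 and 7.72 in air and 9.02, 9.03 and 9.08 in O2 (1.25 ± 0.21, adjusted p = 2.38e-05), the repressor Bhlhe40 changed by 2.17 ± 0.14, Nfil3 by 1.42 ± 0.18 and its antagonist Hlf by -0.76 ± 0.15. In air, 11 of 16 clock genes and 11 of 16 glucocorticoid-response genes fell from P1 to P4, where 11.3% of all genes did. Per2 averaged 9.01 at P1 and 7.80 at P4 in air and 9.04 at P4 in O2, and Cebpd averaged 11.56, 10.10 and 12.79. The labels do not give the hour of collection.

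Among metabolic genes, of 16 cholesterol synthesis genes 9 fell and 0 rose (median -0.36): farnesyl diphosphate synthase Fdps was at 9.91, 9.91 and 9.85 in air and 9.04, 9.15 and 8.97 in O2 (-0.84 ± 0.14), and the sterol carrier Stard4 at 10.57, 10.65 and 10.50 in air and 9.12, 9.47 and 9.34 in O2 (-1.27 ± 0.14, adjusted p = 2.23e-08). Of 22 glycolysis and hypoxia genes 5 rose and 1 fell, a share called about equal to the 27.5% of all genes. The 5 were the glucose transporter Slc2a1 (8.28, 8.51 and 8.39 in air and 11.01, 10.10 and 10.03 in O2, 1.99 ± 0.21), Pfkfb3 (1.98 ± 0.17), hexokinase 2 (Hk2, 1.38 ± 0.26), Adm (2.16 ± 0.31) and Hif1a (0.48 ± 0.08), and the 1 that fell was the phosphofructokinase subunit Pfkl (-0.40 ± 0.12); the other members were not called. Of 17 respiratory chain genes 0 were called by limma, with 1 at an unadjusted p under 0.05 (median -0.02). Of 17 genes of fatty acid use 3 rose and 3 fell; Pdk4, a brake on glucose oxidation, changed by 1.78 ± 0.51, a call lost without air replicate 2 or O2 replicate 1. Of 16 arginine, polyamine and nitric oxide genes 7 rose and 2 fell, with spermine acetyltransferase Sat1 at 10.46, 10.49 and 10.41 in air and 12.41, 12.03 and 12.08 in O2 (1.72 ± 0.11, adjusted p = 6.77e-14), ornithine decarboxylase Odc1 at 0.91 ± 0.18 and arginase 2 (Arg2) at 1.98 ± 0.27.

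Some red cell genes were lower, and lists of other tissues had few calls. Of 9 red cell genes 3 fell, Slc4a1 (-1.49 ± 0.43), Epb42 (-0.56 ± 0.19) and Hbb-y (-0.50 ± 0.16), and 0 rose. Epb42 and Hbb-y each lost their call in 3 alternatives (adjusted p up to 0.129 and 0.165), and 1 to 6 members fell over all alternatives. The mean of the list was 0.24, 0.36 and 0.49 in air and -0.28, -0.24 and -0.28 in O2. Of 14 heart muscle genes 2 fell (Myl7 and Myh6), and of 8 thymus genes 1 fell (Cd1d1, -0.98 ± 0.15), both near the 12.5% of all genes that fell. The call of Myh6 was lost in 9 alternatives, with an adjusted p of 0.297 without air replicate 3. With scores of liver, heart, skeletal muscle and thymus genes as covariates, 5444 genes were called, and 12 of the named genes lost their call: Scgb3a1 (adjusted p = 0.072), Cdhr3, Prox1, Dll4, Col1a2, Msln, Mcpt8, Cd79a, Cd79b, Cpt2, Ager and Dhrs7c.

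Fewer genes were called on the earlier days. On day 1 of exposure 788 genes (4.33%) were called in wild type and on day 2 982 (5.40%), from arrays that share none with day 3. Of the 480 genes higher on day 1, 262 (54.6%) were also higher on day 3, where they made up 9.59% of the 2732; of the 525 higher on day 2, 395 (75.2%) were, or 14.5%. Of the 308 lower on day 1, 123 (39.9%) were lower on day 3, and of the 457 lower on day 2, 278 (60.8%). The earlier counts moved with single libraries: the day 1 count was 231 without O2 replicate 2 of P2, 367 without O2 replicate 1 and 524 without air replicate 2. All 3 O2 libraries of P2 had the male pattern against 1 of 3 in air, and with the sex score the day 1 count was 519. The day 2 count was 458 to 792, lowest without air replicate 2 of P3. On all 3 days 74 genes were higher and 37 were lower.

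Counts by list differed between the days, against shares of all genes of 2.64% higher and 1.69% lower on day 1 and 2.89% and 2.51% on day 2. The p53 targets had 8, 15 and 15 of 18 members higher on days 1, 2 and 3, and NRF2 targets 15, 17 and 20 of 24. The ATF4 list had 3, 12 and 16 of 24. Injury-associated epithelial genes had 2, 2 and 15 of 18 higher, cytokines 1, 7 and 20 of 25, and tRNA synthetases 0, 1 and 9 of 15. Mitosis genes had 0, 0 and 16 of 23 lower, and ER chaperones 0, 5 and 10 of 18 lower. Immediate early genes had 12, 6 and 16 of 21 higher. The differences between these counts were not tested.

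For single genes the difference between days was tested as the effect at P4 minus that at P2, which was called for 2703 genes (14.9%; 7.43% in each direction). Cdkn1a changed by 1.41 ± 0.16 on day 1, 2.26 ± 0.16 on day 2 and 3.19 ± 0.16 on day 3. Eda2r reached 4.28 ± 0.26 by day 2 and 4.37 ± 0.26 on day 3. Cldn4 was at 0.07 ± 0.20 and 0.40 ± 0.20 on days 1 and 2 and at 3.34 ± 0.20 on day 3, a difference between days 3 and 1 of 3.27 ± 0.29 (adjusted p = 6.28e-09). Ddit3 differed by 1.61 ± 0.12, Bcl3, a regulator of NF-kB, by 2.43 ± 0.21, Sat1 by 1.68 ± 0.15 and Ccl2 by 4.22 ± 0.38; these are the named genes of smallest p. Thbs1 changed by 1.24 ± 0.19 on day 1, -0.04 ± 0.19 on day 2 and 2.18 ± 0.19 on day 3. Aplnr (0.02, -0.76 and -1.49) and Fibin (0.04, -0.74 and -2.21) changed little on day 1 and fell on days 2 and 3.

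**Figure D4:**
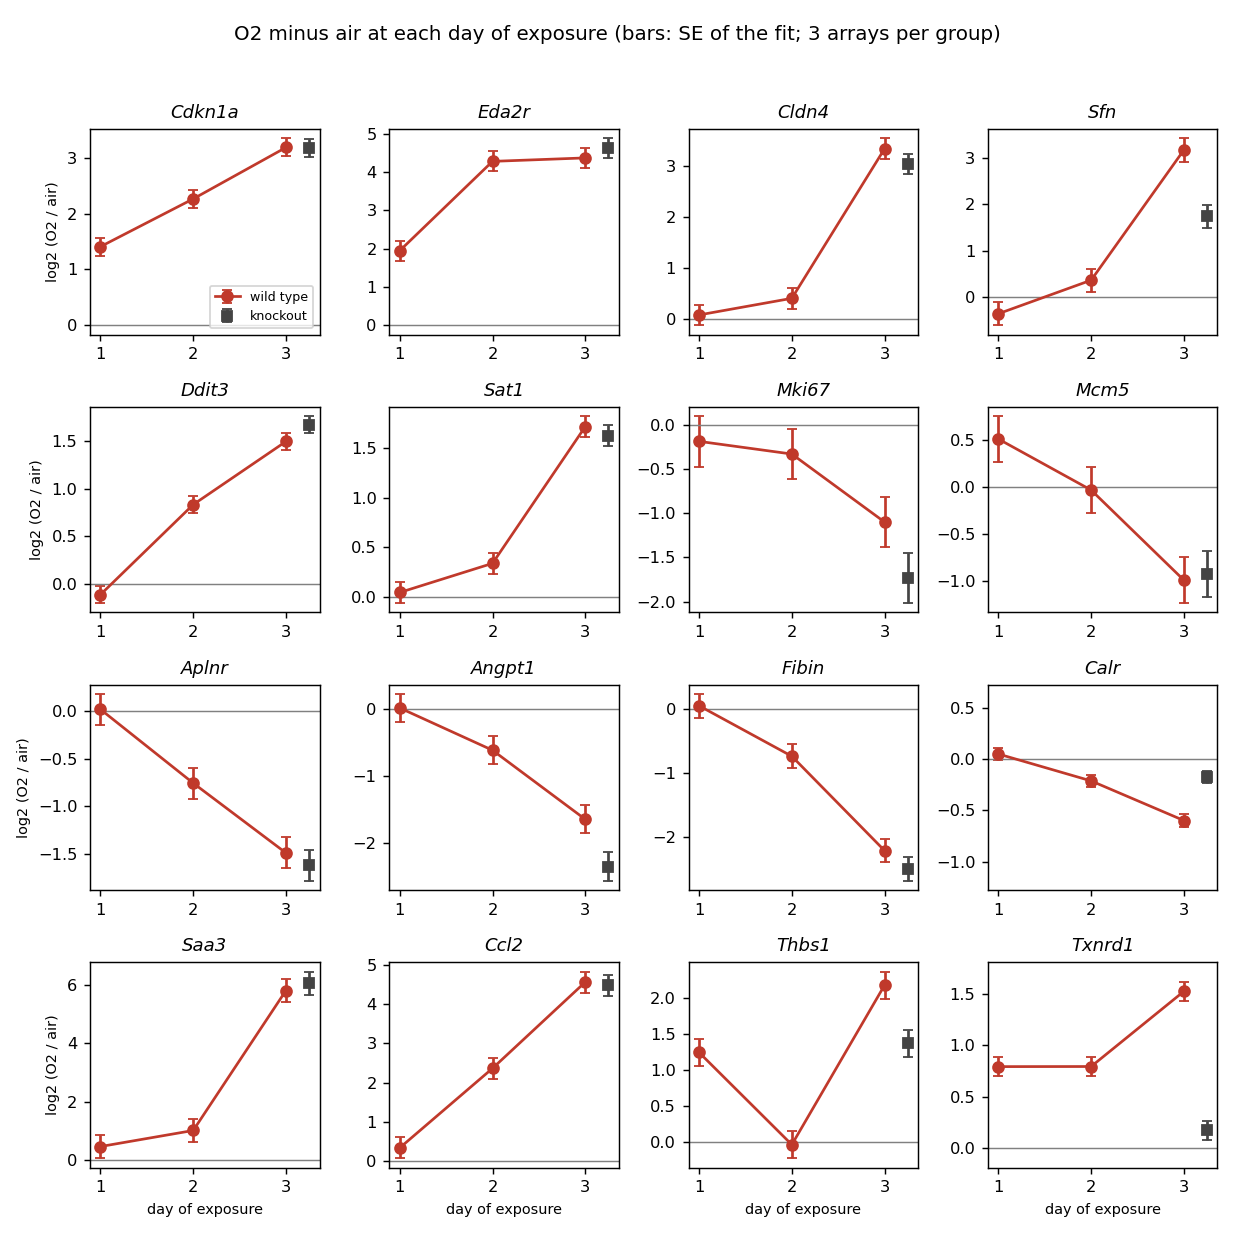
Change (O2 minus air, log2) of 16 genes on days 1, 2 and 3 of exposure in wild type (red) and on day 3 in the knockout (dark square, offset to the right); bars are 1 SE of the fit, with 3 arrays per group. Cldn4 was near 0 on day 1 at 0.07 and reached 3.34 on day 3, whereas Cdkn1a was already at 1.41 on day 1.

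The knockout lungs at P4 give the O2 and air comparison in other animals. By Xist and Y-linked genes, all 3 knockout air libraries were female and all 3 knockout O2 libraries male, so O2 and sex cannot be told apart within the knockout; a sex score estimated over all 42 arrays left 5067 calls there. Their Nfe2l2 levels were 4.85, 4.79 and 4.64 in air and 4.81, 4.41 and 5.46 in O2, below every wild-type value, which lay between 10.78 and 11.56. There 5760 genes (31.7%) were called, 17.0% of all genes higher and 14.7% lower. Of the 2732 genes higher in wild type 1925 were higher in the knockout (70.5% of the wild-type calls and 62.3% of the knockout calls), and of the 2278 lower 1515 were lower (66.5% and 56.7%); 11 genes higher in wild type were lower in the knockout and 7 the reverse. Mitosis genes fell in all 23 cases in the knockout, and injury-associated epithelial genes rose in 17 of 18. Aplnr changed by -1.62 ± 0.16 there and -1.49 ± 0.16 in wild type, Angpt1 by -2.36 ± 0.21 and -1.65 ± 0.21, and Cdkn1a by 3.18 ± 0.16 and 3.19 ± 0.16.

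The test of the difference in effect between genotypes called 102 genes (0.561%), 73 (0.401%) with the higher effect in wild type and 29 (0.159%) with the lower. Leaving out 1 library gave counts between 36 (without wild-type O2 replicate 3) and 409 (without knockout O2 replicate 3). The knockout side of this difference also compares male with female libraries, and with the sex score 45 genes were called. The glutathione peroxidase Gpx2 changed by 2.79 ± 0.16 in wild type and 0.44 ± 0.16 in the knockout (difference 2.35 ± 0.22, adjusted p = 8.32e-08), thioredoxin reductase Txnrd1 by 1.52 ± 0.09 and 0.17 ± 0.09, and glutathione transferase Gsta2 by 1.78 ± 0.22 and -1.21 ± 0.22. Of 24 NRF2 targets 11 were called in this test, all with the higher effect in wild type, and 9 with the sex score. Outside that list, Lyve1 differed by 1.14 ± 0.16 (adjusted p = 0.000132), Fosb by 1.41 ± 0.32 and Hdc by -1.13 ± 0.25. With the sex score Lyve1 stayed called (adjusted p = 0.00135), and Fosb (0.0785) and Hdc (0.0982) did not. Lyve1 averaged 11.67 in air and 13.40 in O2 in wild type, and 12.55 and 13.13 in the knockout. For Hdc these means were 10.25 and 8.99 in wild type, and 9.47 and 9.35 in the knockout. In both genes the genotypes lay farther apart in air than in O2. Among the ER chaperones 4 of 18 had the lower effect in wild type, including Calr (-0.60 ± 0.06 against -0.18 ± 0.06, adjusted p = 0.0106) and Pdia6 (-0.63 ± 0.07 against -0.17 ± 0.07, adjusted p = 0.0158). With the sex score 0 of these 18 were called, and Calr and Pdia6 each had an adjusted p of 0.0539. Of the ATF4 list 1 of 24, the shared NRF2 target Slc7a11, was called. Nfe2l2 itself in wild type was at 10.78, 10.85 and 10.79 in air and 11.01, 11.23 and 11.56 in O2 (0.46 ± 0.18, adjusted p = 0.0532); 7 alternatives called it higher, including the mean of its probe sets (1.08).

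**Figure D5:**
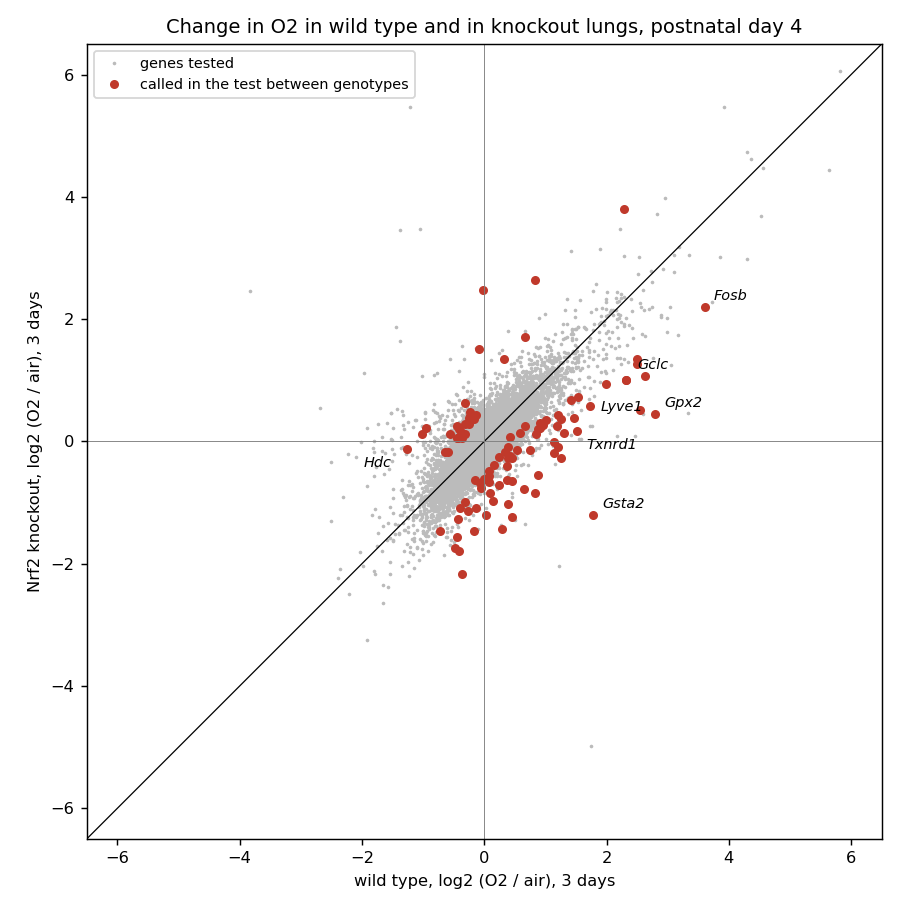
Change in O2 (log2, 3 days, P4) in wild type (horizontal) against knockout (vertical) for the 18194 genes tested (grey); red points are the 102 genes called in the test between genotypes, and the black line marks equal change. Gpx2, at 2.79 in wild type and 0.44 in the knockout, lies far below the line, and Gsta2 lies below 0 in the knockout only.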

How the data were processed

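Total RNA of 42 newborn mouse lungs, 3 in each of 14 groups, was hybridised to Affymetrix 3' arrays, 1 mouse per array. The deposited values were log2 expression levels; the submitters' processing notes name RMA and GCOS, with versions not given in the sources used here. Arrays carry no read depth, and their number limits the precision. Probe sets with a single gene symbol were kept, and 18194 genes were each read from the probe set of highest mean over the 42 arrays. Group means were fitted over all arrays with limma 3.58.1 (R 4.3.3), with moderated tests, Benjamini-Hochberg adjustment over all genes and a threshold of 0.05. On simulated data 68.7% of 67 genes shifted by 0.5 log2 units and all shifted by 1 or 2 were called, with 5 false calls. The simulation shifted only a small part of the genes and drew independent noise for each gene. It therefore does not cover differences that many genes of a library share, such as sex or signal of other organs.

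Named genes were the 15 largest non-overlapping rises and falls (predicted and sex genes left out), up to 5 called genes of smallest p in each of 69 gene lists, 16 fixed genes and the 5 of smallest p in the tests between genotypes and days. Some members of lists with 5 or fewer calls in a direction were also named, but not all of them. The comparison and lists were chosen with earlier results of these data known. Of the named genes, 159 had several probe sets, and no called gene had another probe set called in the opposite direction. Promoter sequences came from RefSeq. Alternatives varied normalization, variance model, array weights, low-level filter, probe-set rule, the arrays fitted, sex and other-tissue scores, a replicate block and single libraries.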

Additional observations from a re-analysis of the deposited data

Results flagged for a closer look

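The effect of 3 days of O2 differed between wild type and knockout in the test of the difference itself for 102 genes. Among named genes the wild-type effect exceeded that of the knockout, on the log2 scale, for the antioxidant genes Gsta2 by 2.996, Gpx2 by 2.349, Srxn1 by 2.027, Txnrd1 by 1.354, Gclc by 1.321 and Slc7a11 by 0.941. The same held for the immediate early gene Fosb (1.409), the hyaluronan receptor Lyve1 (1.144) and the interferon-induced Bst2 (0.678). The difference was negative for the ER proteins Calr (-0.421) and Pdia6 (-0.464) and for Hdc (-1.135), the histamine-synthesizing enzyme. All knockout air libraries were female and all knockout O2 libraries male; with a sex score the adjusted p of Fosb, Bst2, Calr, Pdia6 and Hdc rose to between 0.0539 and 0.0982, and the other 7 named genes stayed called.

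The effect in wild type differed between day 3 and day 1 for 2703 genes, tested as the difference of the 2 effects. The named genes of smallest p were Ccl2 (a difference of 4.215 log2 units), Cldn4 (3.27), Bcl3 (2.43), Sat1 (1.679) and Ddit3 (1.615), all larger on day 3. Each of these genes is described in the report.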

How the results depend on the processing

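For the main comparison the count of called genes lay between 3834 and 6479 under the alternatives with the same threshold, and at least 2-fold changes left 568. The other comparisons depended more on the processing. The genotype test called 192 genes after cyclic loess, 788 with array weights, 48 from the arrays of the contrast alone, 45 with a sex score, 156 with scores of other tissues, and 36 to 409 when 1 library was left out. The day 1 comparison called 1232 genes with array weights, 12 from its own arrays alone, 519 with a sex score and 231 to 1069 without 1 library. The day 2 comparison called 3739, 483 and 458 to 792 with array weights, its own arrays and without 1 library, and P4 against P1 in air called 6381 with array weights. The cause of these shifts was not tested.

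Of the values of named genes under the alternatives, 4233 kept direction and side of the threshold, 147 fell below it, 8 passed it and 6 changed sign. Among lists whose range is not given above, the number higher was 5 to 10 for glycolysis and hypoxia and 3 to 5 for alveolar macrophages, and the number lower was 1 to 5 for surfactant lipid genes, 3 to 7 for FGF, 3 to 8 for guidance genes and 0 to 3 for fatty acid use. The sign changes were in 3 genes without a call: Sftpc (0.0073 after cyclic loess, 0.0619 as the mean of probe sets, and -0.0247 to 0.0076 without 1 library), Eln (0.0269 with scores of other tissues) and Acta2 (-0.0032 to 0.0594 without 1 library). Same-numbered air and O2 mice deviated together in 1 of 3 pairs (correlations of -0.059, 0.434 and -0.053), so the numbers were not taken as pairs; with the replicate block 5083 genes were called.

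With 3 mice per group, single libraries moved calls: among named genes, 26 were lost without O2 replicate 1 (the highest neutrophil and lowest club cell score), 20 without air replicate 3 and 19 without O2 replicate 3. The labels give no litter or hour of collection, and genes near background or near the top of the scale have compressed differences.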
